A study of Sus scrofa with 36 samples.

Results

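The 46 genes described here encode collagens, laminins, integrins, matrix metalloproteinases with their TIMP inhibitors, ADAMTS proteases, fibrillins, fibulins and lysyl oxidases, measured in the mammary gland of pigs. They were chosen by symbol from the 6360 genes that the porcine array names with 1 symbol. The rule was set with earlier results of these data known, and it left out LOXL1. Where a gene had more than 1 probe set (16 of the 46), the brightest on average over the 36 arrays stands for it. By family there were 7 fibrillar collagens (COL1A2, COL2A1, COL3A1, COL5A1, COL5A2, COL5A3 and COL11A1), 5 basement membrane genes (COL4A2, COL15A1, LAMB1, LAMB2 and LAMC1), 5 other collagens, 4 genes of elastic fibres and lysyl oxidases, 11 integrins, 8 metalloproteinases, 3 TIMPs and 2 ADAMTS proteases. ITGB1BP2 (melusin), an integrin-binding protein of striated muscle, meets the symbol rule but belongs to none of these families and is counted apart. COL1A1, COL4A1 and LAMA1 were not analysed here.

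Each array held gland RNA of 1 female Yucatan miniature pig, peripubertal and 5 months old, and there were 9 groups of 4 animals. Sham animals had an operation that spared the ovaries and then had 13 days of saline. The other 32 animals lost their ovaries and had 8 days of bromocriptine, a dopamine agonist that holds prolactin down. Over 5 further days group B stayed on bromocriptine alone, BE had estrogen as well, BP progesterone as well, and BEP both hormones. In groups H, HE, HP and HEP haloperidol, a dopamine antagonist that lets prolactin rise, took the place of bromocriptine, alone or with estrogen, progesterone or both. Every pig had BrdU 24 hours before the end, and doses were not given in the sources used here. All ovariectomized animals had bromocriptine at the start, so in B against sham the loss of the ovaries and the drug cannot be told apart. In the haloperidol comparisons, and in the interaction with haloperidol, stopping bromocriptine and giving haloperidol cannot be told apart either.

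Fibrillar collagens form the tension-bearing fibres of connective tissue, while collagen IV and the laminins build the basement membrane, the sheet on which epithelium, vessels and fat cells rest. Integrins are receptors made of an alpha and a beta chain that hold cells to these proteins, and the laminin and collagen receptors of mammary epithelium belong to this family. Metalloproteinases cut the matrix and TIMPs restrain them, and their balance is known to shift as ducts grow and as the gland regresses after lactation.

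The values are the deposited RMA levels, read as log2, so a difference of 1 is a doubling. Array medians lay between 7.83 and 7.91, and the precision rests on the number of animals. The gland was recognisable by 14 measured luminal epithelial genes, whose mean level lay between 8.88 and 10.80 in every animal. Of the 46 genes, 9 had a mean below the lower quartile of every array (COL11A1, COL8A1, ITGA2, ITGAM, ITGB1BP2, MMP1, MMP3, MMP13 and MMP20), and detection was not measured. Animals are named by group and letter. Libraries that stood apart were BP animal A (70.0 on the first principal component, against -65.3 to -48.3 for its group mates), B animal A (mean level of 12 skeletal muscle genes 13.02, where the other B animals started at 5.34) and B animal B (mean level of 6 milk protein genes 11.49). On the first component HE and HEP animals lay between 41.6 and 68.8. In BP animal A the mean level of 7 cell division genes was 8.91, against 5.97 to 6.29 in its group mates. HE and HEP animals lay between 8.49 and 9.13 for these genes, and the cause was not tested. Muscle levels were also high in H animal C (11.12), BP animal A (9.94), HP animal C (9.38) and HP animal A (9.07). None of these animals had estrogen, and neither had B animal A. BP animal A, B animal A and B animal B all had bromocriptine without estrogen. Leaving them out thus changes only that side of the estrogen, haloperidol and sham comparisons. Where leaving out these 3 arrays ended a call, the text or the closing section says so, and for some genes gives the value without them. Where a count, or a family's median, moved by over 1.5 times, the value without them is given. The tissue is a mixture, so fewer cells of a type and less RNA per cell cannot be told apart.

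**Figure D1:**
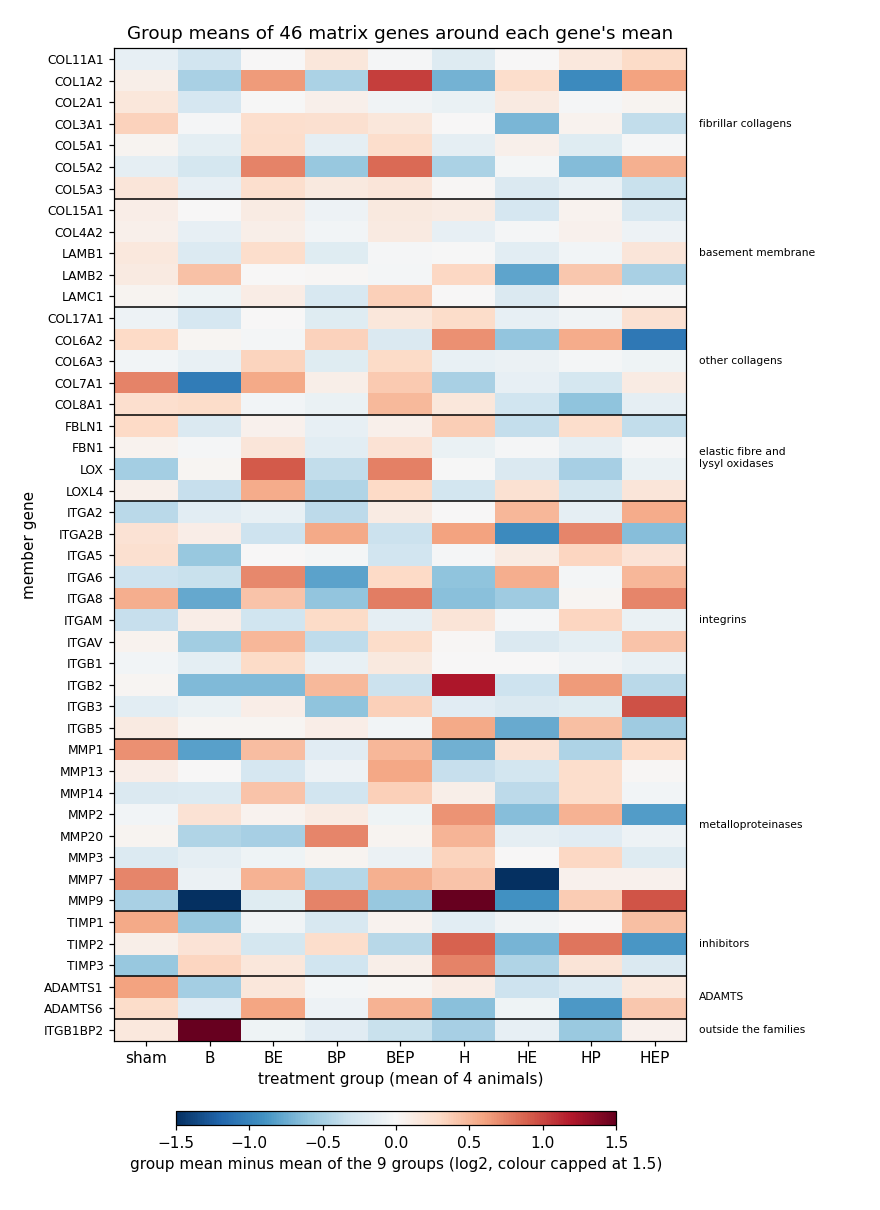
Each row is a gene and each column a treatment group, and the colour is the group mean of 4 animals minus the mean of the 9 groups, in log2 units capped at 1.5. COL1A2 and COL5A2 are red in BE, BEP and HEP, TIMP2, COL6A2 and MMP2 are blue in HE and HEP, and most basement membrane rows stay pale apart from LAMB2.

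As a family, the basement membrane genes had the smallest spread over the 9 groups. The distance between the lowest and the highest group mean had a median of 0.46 in the 5 basement membrane genes, 0.58 in the 7 fibrillar collagens, 1.32 in the 11 integrins and 1.36 in the 8 metalloproteinases. Over all probe sets this median was 0.86, but over those with a mean of 11 or more it was 0.46, and LAMB1, LAMC1 and COL4A2 are of that bright kind. COL4A2, the alpha-2 chain of collagen IV, ran from group means of 11.78 in B and H to 12.04 in BEP, with an SD within groups of 0.23. MMP9, gelatinase B, a protease of neutrophils and macrophages, varied most among the 46, from 7.22 in B to 10.63 in H, with a within-group SD of 1.44.

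Estrogen moved the largest number of these genes. Averaged over the 4 backgrounds (BE against B, BEP against BP, HE against H and HEP against HP), 15 of the 46 rose and 7 fell at an adjusted p under 0.05 in limma, which is 32.6% and 15.2% of them. Of all 20792 probe sets, 17.5% rose and 17.6% fell, so the share that fell was near the background and the share that rose was above it. Those that rose were COL1A2, COL5A1, COL5A2, COL6A3, COL7A1, FBN1, LOX, LOXL4, ITGA6, ITGA8, ITGAV, ITGB3, MMP1, TIMP1 and ADAMTS6. Those that fell were LAMB2, COL6A2, ITGA2B, ITGB2, ITGB5, MMP2 and TIMP2. The counts were 16 and 7 without the 3 arrays that stood apart.

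**Figure D2:**
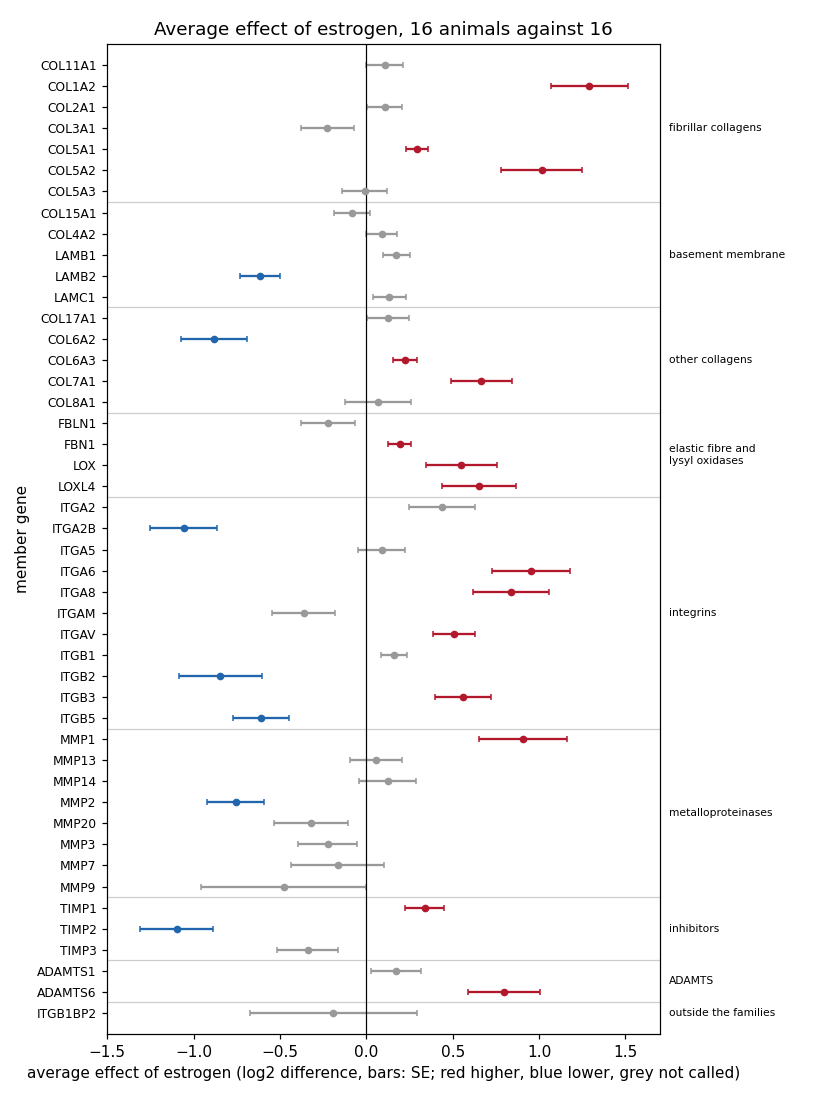
Points give the average effect of estrogen on each gene as a log2 difference between 16 animals given estrogen and 16 ovariectomized animals not given it, with bars for the SE; red and blue mark genes that rose or fell at an adjusted p under 0.05 and grey the others. COL1A2 lies farthest to the right at 1.29 and TIMP2 farthest to the left at -1.10, and LAMB2 is the coloured point among the 5 basement membrane genes.

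Among the fibrillar collagens 3 of 7 rose with estrogen and 0 fell. COL1A2, the alpha-2 chain of collagen I, had levels from 6.59 through a median of 8.36 to 8.99 in the 16 animals given estrogen, and from 5.98 through 6.91 to 8.67 in the 16 not given it. The ranges overlapped, but 15 of the 16 treated animals lay above the mean of the others, and the high untreated value belonged to BP animal A. The rise was 2.45-fold (1.29 ± 0.22, SE, adjusted p = 5.22e-05). COL5A2, a chain of collagen V, which seeds collagen I fibrils, spanned 6.53 to 9.57 (median 8.85) with estrogen and 6.36 to 9.14 (median 7.59) without. It rose 2.02-fold (1.01 ± 0.23, adjusted p = 0.00125), again with 15 of 16 animals above the mean of the others. For both genes the lowest treated animal was HE animal C, at 6.59 for COL1A2 and 6.53 for COL5A2.

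COL5A1, the other main chain of collagen V, rose by a smaller amount with less overlap. Its levels ran from 12.26 to 12.80 (median 12.64) with estrogen and from 12.08 to 12.49 (median 12.27) without, and 11 of the 16 treated animals lay above every untreated one. The difference was 0.30 ± 0.06 (adjusted p = 0.000655). The size depends on the probe set: the 4 dimmer probe sets of COL5A1 gave 0.17, 1.30, 0.64 and 0.27, and the second and the third of these passed. The second probe sets of COL1A2 (1.07) and COL5A2 (0.79) moved the same way as those that represent the genes.

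The other 4 fibrillar collagens did not pass. COL3A1, the collagen of reticular fibres, differed by -0.23 ± 0.15 (adjusted p = 0.260), with a median of 7.30 in animals given estrogen and 7.38 in the others. COL5A3 differed by -0.01 ± 0.13. The cartilage collagens COL2A1 and COL11A1 differed by 0.11 ± 0.10 and 0.11 ± 0.11. The median difference of the 7 was 0.11, against 0.01 over all probe sets.

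Among the 5 basement membrane genes 0 rose and 1 fell. LAMB2, the beta-2 laminin chain known from vessel and muscle basement membranes, had levels from 9.75 to 11.29 (median 10.54) with estrogen and from 10.13 to 11.58 (median 11.24) without. Of the 16 treated animals, 15 lay below the mean of the others, and the low untreated value was BP animal A. The fall was 1.53-fold (-0.61 ± 0.12, adjusted p = 0.00017). LAMB1, the beta-1 chain found in most basement membranes, differed by 0.17 ± 0.08 (adjusted p = 0.0822, and 0.0409 without BP animal B), and LAMC1, the gamma-1 chain, by 0.13 ± 0.10 (adjusted p = 0.293). COL4A2 differed by 0.09 ± 0.09 (adjusted p = 0.459) and COL15A1, a collagen at the border of the basement membrane, by -0.08 ± 0.10 (adjusted p = 0.570).

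LAMB1 is measured by a pair of probe sets that disagree. The brighter, used here, had a mean of 12.01 and the dimmer a mean of 8.61, and the dimmer rose by 1.13 ± 0.23 with estrogen (adjusted p = 0.000327). The statement that LAMB1 did not pass thus holds for the brighter probe set only. Between the 4 probe sets of LAMC1 the difference ran from -0.30 to 0.33, and none passed.

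Taken per animal, the mean level of the fibrillar collagens was 8.47 ± 0.06 (SD, n = 4) in BE and 8.51 ± 0.24 in BEP, and 7.94 ± 0.27 in B and 8.09 ± 0.22 in BP. Under haloperidol it was 7.94 ± 0.13 in H, 8.10 ± 0.32 in HE, 7.92 ± 0.12 in HP and 8.27 ± 0.21 in HEP, and in sham it was 8.24 ± 0.33. The 4 BE animals lay above the 4 B animals, while HE animals fell on both sides of the H animals. The basement membrane mean ran another way: 11.25 ± 0.18 in B against 11.36 ± 0.12 in BE, but 11.30 ± 0.07 in H against 10.96 ± 0.14 in HE. LAMB2 had the largest part in the lower HE mean. In HE against H it differed by -1.10, COL15A1 by -0.38, LAMC1 by -0.22, LAMB1 by -0.15 and COL4A2 by 0.11. LAMB2 alone of these was called. Without the cartilage collagens COL2A1 and COL11A1 the fibrillar mean was 8.90 ± 0.36 in B, 9.54 ± 0.09 in BE, 8.85 ± 0.18 in H and 8.99 ± 0.40 in HE, so BE again lay above B.

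**Figure D3:**
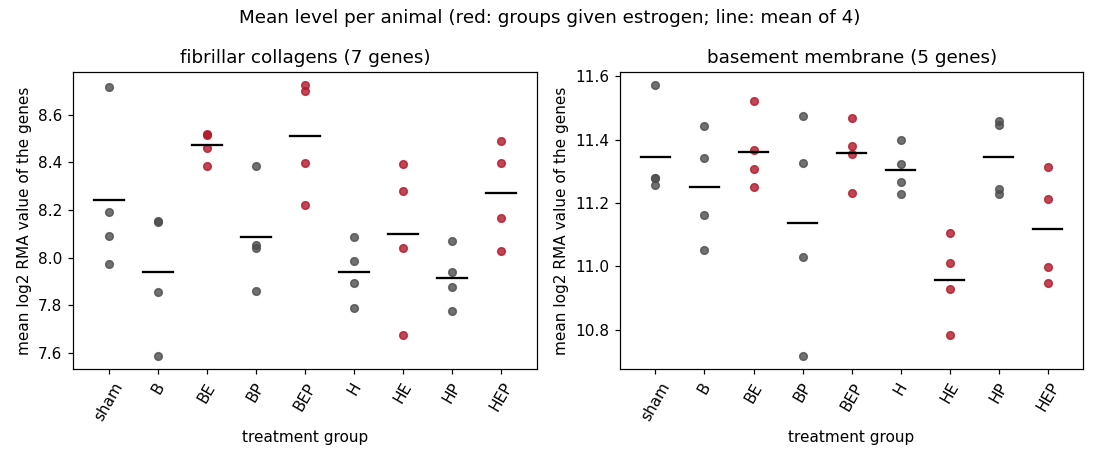
Points are the mean log2 level per animal of the 7 fibrillar collagens and of the 5 basement membrane genes, in the 9 groups, with red for groups given estrogen and a line at the mean of 4 animals. In the fibrillar panel BE and BEP lie highest, at 8.47 and 8.51, and in the basement membrane panel HE lies lowest, at 10.96.

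Of the 5 other collagens 2 rose and 1 fell with estrogen. COL7A1, which forms the anchoring fibrils beneath epithelium, had levels from 7.11 to 9.39 (median 8.59) in animals given estrogen and from 6.14 to 8.82 (median 7.96) in the others. It rose 1.59-fold (0.66 ± 0.18, adjusted p = 0.00403), and 15 of 16 treated animals lay above the mean of the others. Collagen VI, a beaded filament of the space around cells, was split between its chains. COL6A3 rose by 0.22 ± 0.07 (adjusted p = 0.014), from a median of 12.10 to 12.41, whereas COL6A2 fell by 0.88 on the log2 scale (SE 0.19, adjusted p = 0.000616), from a median of 11.88 to 10.89. COL17A1, a collagen of hemidesmosomes, differed by 0.12 ± 0.12 and COL8A1 by 0.07 ± 0.19.

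Among elastic fibre genes and lysyl oxidases 3 of 4 rose. LOX and LOXL4 are enzymes that cross-link collagen and elastin. LOXL4 had levels from 7.62 to 9.77 (median 8.54) with estrogen and from 7.02 to 8.91 (median 8.08) without, a difference of 0.65 ± 0.21 (adjusted p = 0.0184). LOX spanned 6.71 to 9.54 (median 8.55) and 7.32 to 8.75 (median 7.79), a difference of 0.55 ± 0.21 (adjusted p = 0.0375). The LOX difference was 1.00 under bromocriptine and 0.09 under haloperidol, and the limma test between these was not called (adjusted p = 0.166). The LOX call was lost without any 1 of 17 of the 32 arrays, with an adjusted p of up to 0.0717. FBN1, fibrillin 1, the scaffold of elastic microfibrils, rose by 0.19 ± 0.06 (adjusted p = 0.0209), and its second probe set rose by 0.92 ± 0.20. FBLN1, fibulin 1, differed by -0.22 ± 0.15 (adjusted p = 0.271).

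Of the 11 integrin chains 4 rose and 3 fell with estrogen. ITGA6, the alpha-6 chain of epithelial laminin receptors, had levels from 7.45 to 9.44 (median 8.48) in treated animals and from 6.01 to 9.10 (median 7.79) in the others, and the highest untreated value was BP animal A. It rose 1.94-fold (0.95 ± 0.23, adjusted p = 0.00163), with 15 of 16 animals above the mean of the others. ITGA8, an alpha chain of smooth muscle and mesenchyme, rose by 0.84 ± 0.22 (adjusted p = 0.00392), from a median of 7.29 to 8.40. Its 2 other probe sets rose by 1.13 and 1.00. Both chains of the vitronectin receptor rose on average: ITGAV by 0.51 ± 0.12 (adjusted p = 0.00195, median 9.20 to 9.85) and ITGB3 by 0.56 ± 0.16 (adjusted p = 0.00759, median 9.04 to 9.53). By background they differed. ITGAV and ITGB3 changed by 1.02 and 0.19 in BE against B, and by -0.23 and -0.04 in HE against H. With progesterone the changes were 0.66 and 0.96 in BEP against BP, and 0.57 and 1.13 in HEP against HP.

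The integrin chains that fell included markers of blood cells. ITGA2B, the platelet alpha-IIb chain, fell 2.08-fold (-1.06 ± 0.19, adjusted p = 0.000102): all 16 treated animals lay below the mean of the others, with a range of 5.15 to 6.71 against 5.38 to 8.24. ITGB2, the beta-2 chain of leukocytes, ran from 7.03 to 8.87 (median 7.90) with estrogen and from 7.32 to 10.27 (median 8.88) without. It fell by 0.85 on the log2 scale (SE 0.24, adjusted p = 0.00715). ITGB5, a beta chain that pairs with alpha-V, fell by 0.61 (SE 0.16, adjusted p = 0.00403), from a median of 11.05 to 10.42. Its difference was -0.07 under bromocriptine and -1.15 under haloperidol. ITGB1, the beta-1 chain shared by most matrix receptors, differed by 0.16 ± 0.08 (adjusted p = 0.0980, and 0.0448 without BE animal C), and ITGA5, of the fibronectin receptor, by 0.09 ± 0.14. ITGA2 (0.44 ± 0.19, adjusted p = 0.0751) and ITGAM (-0.36 ± 0.18, adjusted p = 0.122) were dim.

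The proteases and their inhibitors were divided. Of the 8 metalloproteinases 1 rose and 1 fell. MMP2, gelatinase A, which digests collagen IV and denatured collagen, had levels from 9.75 to 11.45 (median 10.91) with estrogen and from 9.90 to 12.13 (median 11.73) without. All 16 treated animals lay below the mean of the others, and the fall was 1.69-fold (-0.76 ± 0.16, adjusted p = 0.00069). MMP1, interstitial collagenase, rose by 0.91 ± 0.25 (adjusted p = 0.00618), but with a mean of 3.03 it was the dimmest of the 46. MMP14, the membrane enzyme that activates MMP2, differed by 0.12 ± 0.17, MMP7, matrilysin of glandular epithelium, by -0.17 ± 0.27 and MMP9 by -0.48 ± 0.48.

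TIMP2, an inhibitor that also serves in the activation of MMP2, fell 2.14-fold (-1.10 ± 0.21, adjusted p = 0.000218). Its levels ran from 10.06 to 11.72 (median 10.76) with estrogen and from 9.55 to 12.73 (median 12.06) without, and each of the 16 treated animals lay under the untreated mean. The value of 9.55 was BP animal A, whose group mates lay between 12.04 and 12.53, and without the 3 arrays that stood apart the difference was -1.31. The second probe set of TIMP2 fell less, by 0.47 (SE 0.11, adjusted p = 0.00137). TIMP1 rose by 0.34 ± 0.11 (adjusted p = 0.0205), from a median of 11.38 to 11.59, and TIMP3, which binds to the matrix, differed by -0.34 ± 0.18 (adjusted p = 0.131). ADAMTS6 rose 1.74-fold (0.80 ± 0.21, adjusted p = 0.0038), and ADAMTS1, which cuts proteoglycans, differed by 0.17 ± 0.14 (adjusted p = 0.366).

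**Figure D4:**
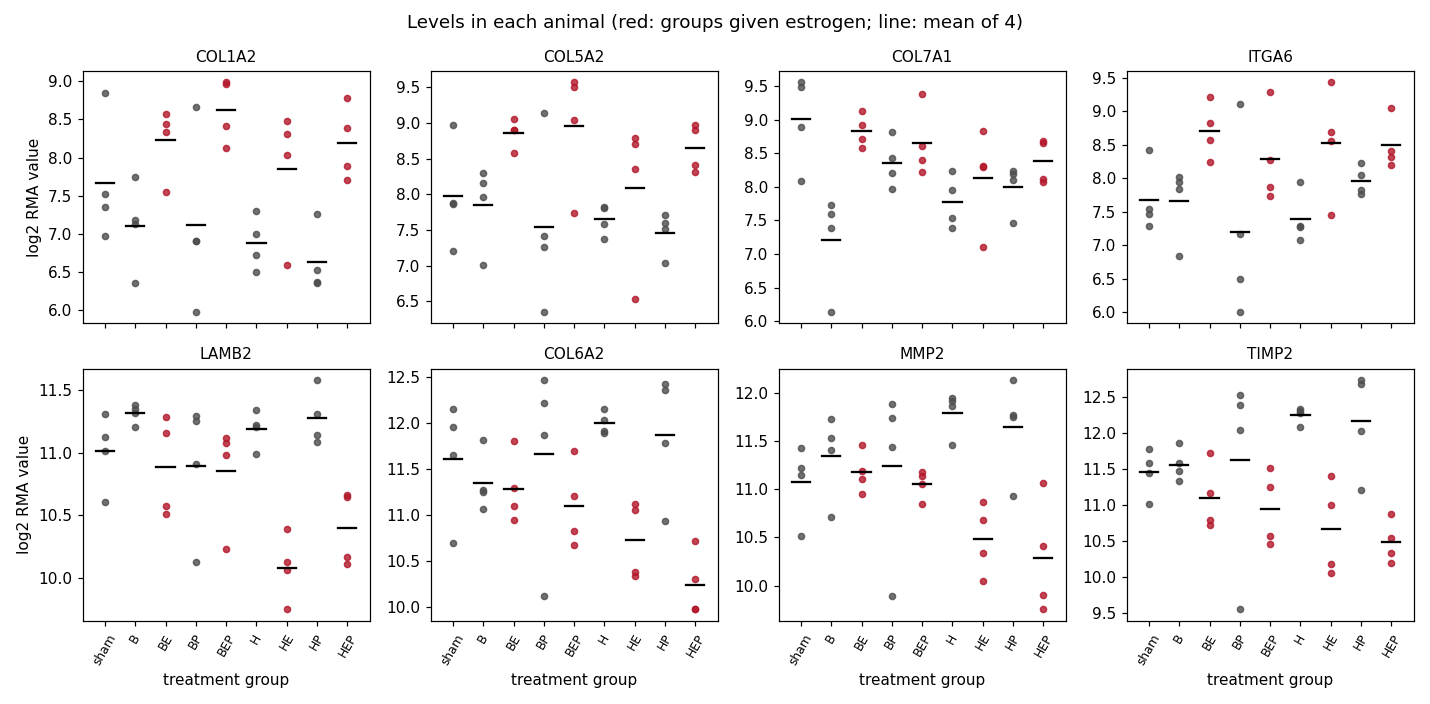
Each panel shows the log2 RMA level of 1 gene in every animal of the 9 groups, with red points for groups given estrogen and a line at the mean of 4. The upper panels hold genes that rose with estrogen (COL1A2, COL5A2, COL7A1 and ITGA6), the lower panels genes that fell (LAMB2, COL6A2, MMP2 and TIMP2), and BP animal A lies apart from its group in the COL1A2, COL5A2, ITGA6, LAMB2, COL6A2, MMP2 and TIMP2 panels.

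Of 39 measured genes that work with these proteins, 7 rose and 7 fell with estrogen, 17.9% each way, which is near the shares over all probe sets given above. Of 8 measured enzymes and chaperones of collagen processing, 2 rose with estrogen and 1 fell. SERPINH1 (HSP47), the collagen chaperone, rose by 0.75 ± 0.13 and P4HA2, a prolyl hydroxylase that stabilises the triple helix, by 0.69 ± 0.10, while PCOLCE2, an enhancer of procollagen cleavage, fell by 0.82 (SE 0.19). Of 14 partners of fibrils and elastic fibres 5 rose and 2 fell. BGN (biglycan), a small proteoglycan that binds collagen, rose by 0.71 ± 0.13, LUM (lumican) by 0.35 ± 0.09 and MFAP5, of elastic microfibrils, by 0.55 ± 0.14, whereas THBS2 (thrombospondin 2) fell by 1.08 (SE 0.22). Of 3 basement membrane partners measured, DST fell, of 10 further proteases and inhibitors PLAU and CTSK fell, and of 4 genes of integrin adhesion TLN1 (talin 1) fell.

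Markers of several cell types moved with estrogen in the same arrays. Of 11 adipocyte markers 8 fell (median -1.19), of 12 endothelial markers 8 (median -0.60), of 12 skeletal muscle markers 8 (median -1.80) and of 11 leukocyte markers 5 (median -0.32), with 0 rising in each list. The animals named above for high muscle levels were all without estrogen. All 7 cell division genes rose (median 1.69). Of 9 fibroblast markers 1 rose and 2 fell, and of 14 luminal markers 3 rose and 1 fell. The mean adipocyte level lay between 7.88 and 8.66 in HE and between 7.69 and 9.00 in HEP, against 9.85 to 10.21 in H, 9.54 to 10.16 in HP, 8.95 to 10.22 in B, 8.27 to 10.08 in BP, 8.62 to 9.61 in BE, 8.95 to 9.43 in BEP and 8.49 to 9.35 in sham. The leukocyte mean lay between 9.02 and 9.79 in HE and HEP and between 9.29 and 10.50 in H and HP. The part of these cell types in the matrix results was not tested.

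Set apart by background, the share of the 46 that passed for estrogen, both directions together, was near that of all probe sets in each of the 4. The directions taken apart were uneven in HE against H. There, 10 of the 46 (21.7%) fell and 0 rose, where 10.1% of all probe sets fell and 9.81% rose. In HEP against HP, 3 rose and 6 fell, where 8.84% of probe sets rose and 7.7% fell. In BE against B, 2 rose and 0 fell (2.88% and 0.895% of probe sets), and in BEP against BP, 0 were called in limma (0.784% of probe sets in either direction). At an unadjusted p under 0.05 BEP against BP had 13 of the 46, where 16.4% of probe sets passed. BP animal A weighed on that last count: without it, 11 of the 46 were called, among them COL1A2 (2.02, adjusted p = 0.00291), COL5A2 (1.95) and TIMP2 (-1.37). Without BEP animal A there were 2, and without BP animal C 1.

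The genes called under bromocriptine were COL7A1 and ITGAV. COL7A1 stood at 6.14, 7.38, 7.60 and 7.74 in the B animals and at 8.58, 8.71, 8.92 and 9.13 in the BE animals, with no overlap, and rose 3.07-fold (1.62 ± 0.35, adjusted p = 0.00521). ITGAV stood at 8.69, 8.92, 8.95 and 9.36 in B and at 9.78, 9.88, 9.97 and 10.38 in BE, again without overlap, a rise of 2.03-fold (1.02 ± 0.25, adjusted p = 0.0128). Neither passed without the 3 arrays that stood apart.

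Under haloperidol without progesterone the genes that fell were LAMB2, COL6A2, ITGA2B, ITGB2, ITGB5, MMP2, MMP7, MMP9, TIMP2 and TIMP3. MMP7 stood at 11.04, 11.10, 11.20 and 11.74 in the H animals and at 7.54, 8.81, 9.47 and 10.32 in the HE animals, a fall of 4.71-fold (-2.24 ± 0.54, adjusted p = 0.00412). LAMB2 stood between 10.99 and 11.34 in H and between 9.75 and 10.39 in HE (-1.10 ± 0.23, adjusted p = 0.00148). MMP9 stood at 10.05 to 11.18 in H and 5.86 to 9.10 in HE (-2.66 ± 0.95, adjusted p = 0.0461). In each of these 3 genes, picked among the called ones, the HE animals lay below all H animals. The groups did not overlap either for COL15A1 and FBLN1 (lower in HE) and COL5A1 (higher in HE), which were not called. How many of all probe sets separate in this way is not given here, and 33.3% had an unadjusted limma p under 0.05. With progesterone, in HEP against HP, COL1A2 (1.56 ± 0.45), ITGB3 (1.13 ± 0.32) and ADAMTS6 (1.26 ± 0.42) rose, and LAMB2, COL6A2, ITGA2B, ITGB5, MMP2 and TIMP2 fell, COL6A2 by 1.63 (SE 0.38).

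The interaction of estrogen with haloperidol tests whether the estrogen effect differed between the drugs, and is given as the effect under haloperidol minus that under bromocriptine. It was below 0 for 39 of the 46 genes, 84.8%, against 50.4% of all probe sets, and 6 were called lower and 0 higher (3.62% and 3.87% of all probe sets). Without the 3 arrays that stood apart it was below 0 for 38. The median estrogen effect of the 46 was 0.26 under bromocriptine and -0.02 under haloperidol. For the fibrillar collagens these medians were 0.21 (0.33 without the 3 arrays) and 0.16, and for the basement membrane genes 0.19 and -0.13. All 5 basement membrane genes and 5 of the 7 fibrillar collagens had an interaction below 0. COL1A2 had -0.05 ± 0.45, with estrogen effects of 1.32 under bromocriptine and 1.27 under haloperidol.

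The 6 genes called were MMP7, MMP2, ITGB5, MMP14, LAMB2 and COL6A3. MMP7 differed by 0.79 with estrogen under bromocriptine and by -1.12 under haloperidol (interaction -1.90 ± 0.54, adjusted p = 0.0301). The value under haloperidol averages unlike parts: -2.24 in HE against H and 0.001 in HEP against HP. The fall of MMP7 was thus seen without progesterone only. MMP2 differed by -0.18 and -1.34 (interaction -1.16 ± 0.33, adjusted p = 0.0301), with group means of 11.34 in B, 11.17 in BE, 11.79 in H and 10.48 in HE. ITGB5 had an interaction of -1.08 ± 0.32 (adjusted p = 0.0384) and MMP14 of -1.05 ± 0.33 (adjusted p = 0.0489). MMP14 stood at 9.49 to 9.98 in BE and 8.48 to 9.33 in HE, so these groups did not overlap, though MMP14 was not called in HE against BE. LAMB2 had an interaction of -0.75 ± 0.23 (adjusted p = 0.0444), and COL6A3 of -0.46 ± 0.14 (adjusted p = 0.0436). COL6A3 stood between 12.45 and 12.68 in BE, above every B animal (12.06 to 12.15) and every HE animal (11.93 to 12.33).

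**Figure D5:**
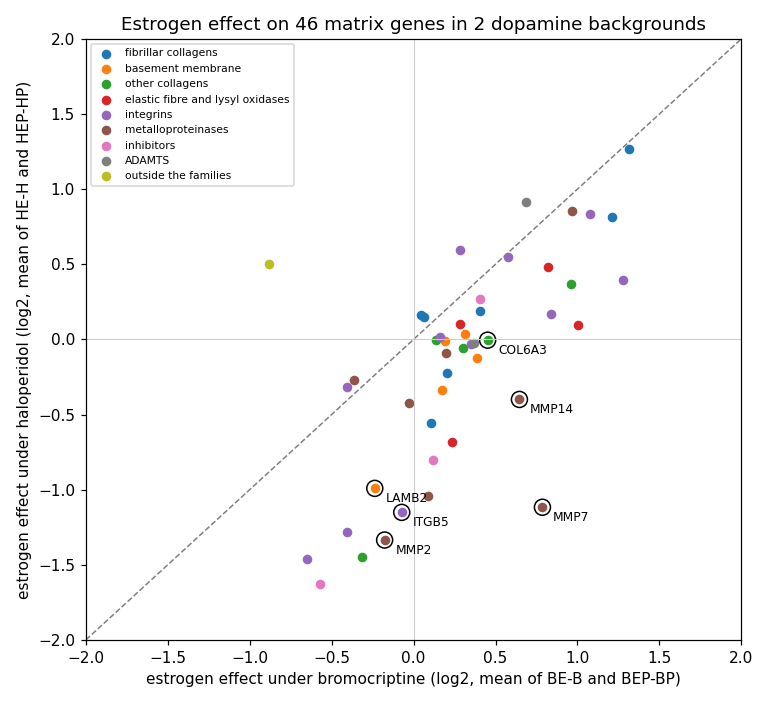
Each point is a gene, with its estrogen effect under bromocriptine on the horizontal axis and under haloperidol on the vertical axis, both log2 differences averaged over progesterone; the dashed line marks equal effects and circles mark the 6 genes with a called interaction. Most points, 39 of 46, lie below the dashed line, and COL1A2, at 1.32 and 1.27, lies close to it.

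These interactions are near the limit of the test. Without the 3 arrays that stood apart 0 of the 46 passed (MMP7 -1.33, adjusted p = 0.0926, and MMP2 -0.79, adjusted p = 0.0943), without HEP animal A or HE animal B 0 passed, and without BP animal A MMP2 and MMP7 passed. The count fell to 3 or fewer without any 1 of 18 of the 32 arrays. MMP7 lost its call without HEP A, HE B or HP B, and MMP2 without HEP A, HE B, HP C or BE D. Adipocyte markers had the same direction: 6 of 11 were called lower in this interaction (median -1.58), as were 3 of 11 leukocyte markers (median -0.85), 1 of 9 fibroblast markers, DPT (-1.49 ± 0.22; list median -0.65), and 2 of 12 endothelial markers (median -0.48). Of 7 cell division genes 4 were called higher (median 1.42), of 14 luminal markers 1 higher, and of 7 myoepithelial and smooth muscle markers 1 lower. The fibroblast mean level lay between 11.33 and 11.77 in BE, 11.39 and 11.68 in BEP, 10.96 and 11.10 in HE, and 10.92 and 11.23 in HEP. The part of these cell types in the interaction was not tested. Among partner genes BMP1, PCOLCE2, DST, THBS2, DPT (which also stands in the fibroblast list) and PLAU were called lower, THBS2 by 2.37 (SE 0.45).

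Group B against sham shows the gland after loss of the ovaries with 13 days of bromocriptine in all. COL7A1, TIMP1 and ADAMTS1 fell and 0 of the 46 rose (2.62% of all probe sets fell and 1.56% rose), and 34 of the 46 were lower in B (29 without the 3 arrays that stood apart). COL7A1 stood at 8.09, 8.88, 9.49 and 9.56 in sham and at 6.14, 7.38, 7.60 and 7.74 in B, a fall of 3.46-fold (-1.79 ± 0.35, adjusted p = 0.00252). TIMP1 stood at 11.69, 12.12, 12.29 and 12.39 in sham and at 10.41, 10.84, 11.17 and 11.53 in B (-1.13 ± 0.23, adjusted p = 0.00295). ADAMTS1 stood at 9.16, 9.93, 9.95 and 10.30 in sham and at 8.31, 8.75, 8.80 and 9.02 in B (-1.11 ± 0.28, adjusted p = 0.0215). In each of the 3 genes every B animal lay below every sham animal. These genes were picked by their p-values, which favours such a separation. The B animals also lay below the sham animals for ITGA5, MMP1 and MMP7, which were not called. The share of all probe sets without overlap is not given here, and 19.4% of them had an unadjusted limma p under 0.05.

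None of these calls held when B animals A and B and BP animal A were left out (COL7A1 -1.34, adjusted p = 0.0658; TIMP1 -0.93, adjusted p = 0.0574; ADAMTS1 -1.17, adjusted p = 0.0889), nor when the fit held only the 2 groups. The second probe set of ADAMTS1 differed by -0.30 ± 0.38 (adjusted p = 0.732), and its call was also lost without sham animal A, sham animal D or B animal C. By the probe sets that represent them, all 7 fibrillar collagens were lower in B, by 0.12 to 0.57 on the log2 scale. Their median was -0.31, with 0 called. The second probe sets of COL1A2 and COL5A2 differed by 0.03 and 0.06, and that of COL5A3 by -0.54. The dimmer probe sets of COL5A1 differed by -0.98 to -0.37. Of the 5 basement membrane genes 4 were lower, with a median of -0.11, and LAMB2 differed by 0.30. The other probe sets of LAMC1 differed by 1.13, 0.41 and 0.04, and that of LAMB1 by -0.04. None of these other probe sets passed. Without the 3 arrays 6 fibrillar collagens and 4 basement membrane genes were lower, and the medians were -0.40 and -0.31, so the families then lay closer together. ITGB1BP2 was at 11.53 in B animal A, the animal with the high muscle level, and between 5.58 and 5.72 in the other B animals. Of the partner genes BGN fell by 1.29 (SE 0.26) and CTSK, a collagen-digesting cathepsin, rose by 0.68 ± 0.19. Of 7 cell division genes 6 fell in B (median -1.71), as did 3 of 7 markers of myoepithelium and smooth muscle (median -0.71), and their part in the matrix results was not tested.

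With haloperidol in place of bromocriptine, averaged over the other hormones, 0 of the 46 were called by limma in either direction, where 3.85% of all probe sets rose and 3.13% fell. At an unadjusted p under 0.05 there were 9 of the 46, where 22.3% of all probe sets passed, with adjusted p from 0.0902 to 0.214: ADAMTS6, COL3A1, COL5A3, COL6A3, ITGA5, ITGB2, LAMB2, LOX and TIMP1. ITGA5 was higher by 0.38 ± 0.14 and LOX lower by 0.54 (SE 0.21). The median was -0.27 for the fibrillar collagens and -0.09 for the basement membrane genes, against -0.01 over all probe sets, and without the 3 arrays that stood apart they were -0.14 and -0.07. Without BP animal A, COL3A1 (-0.47, adjusted p = 0.0392) and LAMB2 (-0.31, adjusted p = 0.0495) passed, and without the 3 arrays MMP7 did (-0.74, adjusted p = 0.0383). Partner genes that fell were DST (-0.50 ± 0.08), ASPN (-0.58 ± 0.13), FN1 (-0.34 ± 0.09), MFAP5 and PCOLCE2. All 6 milk protein genes rose (median 3.71), and their part in these values was not tested.

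By background the haloperidol effect on these genes was called in animals on estrogen without progesterone. In HE against BE, 4 fell and 0 rose, where 5.05% of all probe sets fell and 5.46% rose. MMP7 stood at 10.64, 11.20, 11.70 and 11.90 in BE and at 7.54, 8.81, 9.47 and 10.32 in HE (-2.32 ± 0.54, adjusted p = 0.00546). LAMB2 differed by -0.80 ± 0.23 (adjusted p = 0.0249), COL3A1 by -0.95 ± 0.31 (adjusted p = 0.0433) and COL6A3 by -0.42 ± 0.14 (adjusted p = 0.0499). COL3A1 stood at 7.28, 7.32, 7.76 and 7.97 in BE and at 5.78, 6.60, 6.79 and 7.36 in HE, with 1 HE animal inside the BE range.

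In H against B, HP against BP and HEP against BEP 0 of the 46 were called by limma (0.0337%, 0% and 1.08% of all probe sets). At an unadjusted p under 0.05 there were 7, 1 and 5, where 10.5%, 4.84% and 14.3% of all probe sets passed. The smallest p-values in H against B were those of ITGB2 and MMP9. MMP9 stood at 5.64, 6.95, 7.04 and 9.26 in B and at 10.05, 10.49, 10.79 and 11.18 in H (3.41 ± 0.95, adjusted p = 0.185). ITGB2 stood at 7.32, 7.81, 7.89 and 8.13 in B and at 9.17, 9.68, 9.78 and 10.01 in H (1.87 ± 0.48, adjusted p = 0.136). Neither pair of groups overlapped, and neither gene passed after adjustment. The H animals also lay above the B animals for COL17A1, COL6A2, ITGA5 and TIMP2, which were not called. For all probe sets the share without overlap is not given here.

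Progesterone called 0 of the 46 in limma, where 0.077% of all probe sets rose and 0.0144% fell, and 4 had an unadjusted p under 0.05, as did 4.92% of all probe sets. ITGA8 differed by 0.61 ± 0.22 (adjusted p = 0.723), MMP13, a dim collagenase, by 0.41 ± 0.15 (adjusted p = 0.719), TIMP1 by 0.28 ± 0.11 (adjusted p = 0.860) and COL11A1 by 0.26 ± 0.11 (adjusted p = 0.867). The interaction of estrogen with progesterone called 0 as well (0.164% of all probe sets higher and 0.0866% lower), with 3 at an unadjusted p under 0.05, where 10.4% of all probe sets passed. ITGB3 had the smallest p of these, an interaction of 0.97 ± 0.32 (adjusted p = 0.239), with group means of 10.15 in HEP and 9.55 in BEP against 9.29 in BE and 8.98 in HE. MMP7 had 1.29 ± 0.54 and COL8A1 0.92 ± 0.38.

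Comparisons that share animals are not independent of each other: the average effect of estrogen, its 4 parts and the interaction use the same 32 arrays, and the B animals stand in B against sham, BE against B and H against B. COL7A1, for example, was lower in B than in sham and higher in BE than in B, and both values rest on the same 4 B animals. Its group means were 9.01 in sham, 7.22 in B, 8.83 in BE, 8.35 in BP and 8.65 in BEP, and 7.78 in H, 8.14 in HE, 8.00 in HP and 8.38 in HEP.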

How the data were processed

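RNA of 36 pig mammary glands was labelled with biotin and hybridized to 1 Affymetrix porcine array per animal. The authors deposited probe set values summarized with RMA, per the submitters' processing notes. No version or log base is given in the sources used here. The deposited values, 1.55 to 13.74 with nearly equal medians, were read as log2, and every fold rests on that. They were used without further normalization, and the raw intensities were not analysed here. Of 20792 probe sets, 9149 had 1 symbol in the platform annotation, 178 several and 11465 none, and all 46 members carried the same symbol in the RefSeq gene table.

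limma 3.58.1 (R 4.3.3, statmod 1.5.0) fitted 1 mean per group to all 36 arrays (27 residual and 4.16 prior degrees of freedom). Two-sided p-values of the moderated tests got the Benjamini-Hochberg adjustment across the 20792 probe sets, separately in 14 comparisons, and an adjusted p under 0.05 was called. The fit was tested on simulated data. Members, families and gene lists were chosen with earlier results of these data known. Every member may be named. Values by animal or group are given for called members (up to 4 per direction and family in the estrogen, haloperidol and sham comparisons, up to 6 per direction in the others) and for 12 fixed members. Animals were taken as replicates because the labels' protocols assign 4 pigs to each treatment.

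Titles carry letters A to D. Deviations from group means of same-lettered animals correlated between -0.41 and 0.46 (median 0.05), so letters were not taken to pair animals. Alternatives were dim probe sets left out, a second quantile normalization, median centring, array weights, robust moderation with a variance trend, a block for the letter, 1 probe set per gene, the most variable probe set, an adjusted p under 0.01, only the compared groups and each array left out. Leaving out B A, B B and BP A together was chosen after seeing the data. Python 3.11.15 with pandas 2.3.3 and matplotlib 3.10.9 drew the figures.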

Additional observations from a re-analysis of the deposited data

Results flagged for a closer look

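Over 25 of the genes and the 9 groups, 225 sets of 4 animals were searched for an animal far from its group, with Dixon's criterion at 95%, and 8 were found, where chance alone flags about 1 in 20 sets. ADAMTS6 was at 5.998 in HEP animal C, where the others lay between 7.69 and 7.96. COL6A3 was at 12.65 in BEP animal D (others 12.42 to 12.46) and LAMB2 at 10.23 in the same animal (others 10.98 to 11.12). FBN1 was at 12.93 in BE animal C (others 13.03 to 13.04). ITGA6 was at 6.83 in B animal A (others 7.84 to 8.02). ITGAV was at 8.92 in BEP animal A (others 9.98 to 10.12) and at 9.57 in BP animal A (others 8.94 to 9.01). TIMP2 was at 9.55 in BP animal A (others 12.04 to 12.53).

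The effect of estrogen was called different between haloperidol and bromocriptine for 6 genes, by the interaction test of limma. They were MMP7 (-1.90), MMP2 (-1.16), ITGB5 (-1.08), MMP14 (-1.05), LAMB2 (-0.75) and COL6A3 (-0.46). These calls are near the limit of the test. The count ran from 0 to 8 when each array was left out, with 0 without HEP animal A or HE animal B. The calls did not hold without B A, B B and BP A together.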

How the results depend on the processing

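The estrogen counts (15 higher, 7 lower) ran from 14 to 16 and 7 to 8 when each array was left out, and from 10 to 18 and 7 to 9 in the other settings. The 31 called values of single genes in the average effects, B against sham and the interactions kept their sign in each setting that gave a value. Values near 0 that were not called did not all do so: COL5A3 with estrogen went from -0.01 to 0.05 without B A, B B and BP A. Other counts moved. With array weights they were 2 higher in B against sham (LOX, TIMP3), 2 lower with haloperidol, 13 lower in the interaction of estrogen with haloperidol, 7 in BE against B, 13 in BEP against BP, 1 in H against B, 11 in HE against BE and 5 in HEP against BEP. Without B A, B B and BP A, 0 were lower in B against sham, 1 with haloperidol and 0 in the interaction of estrogen with haloperidol, with 0 in BE against B and 12 in BEP against BP. At an adjusted p under 0.01 the interaction of estrogen with haloperidol had 0, BE against B 1, HE against H 6, HEP against HP 3 and HE against BE 1. With only the compared groups B against sham had 0 lower and HE against BE 1. BE against B had 4 after a second quantile normalization or with 1 probe set per gene and 5 with a variance trend, and BEP against BP had 3 with that trend and 2 with the most variable probe sets. The cause was not tested. With the letter as a replicate block, fixed or random, the estrogen counts stayed at 15 and 7, and the interaction of estrogen with haloperidol had 8 (fixed) or 6 (random).

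Leaving out each array gave 0 to 1 higher (TIMP3 without sham C) and 2 to 4 lower in B against sham, 0 to 1 higher (ITGA5 without HP A) and 0 to 2 lower with haloperidol (2 without BP A), 0 to 8 lower in the interaction of estrogen with haloperidol, 1 to 3 in BE against B (1 without BE B), 0 to 11 in BEP against BP (11 without BP A), 7 to 10 in HE against H, 5 to 10 in HEP against HP (5 without HP C) and 1 to 5 in HE against BE (1 without HE C or BE D). With 4 animals per group, and with dim probe sets whose detection was not measured, small changes can be missed.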
